A study of Mus musculus with 10 samples.

Results

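The Notch receptor genes Notch1, Notch2 and Notch3, the ligand genes Jag1, Jag2 and Dll1, the nuclear effector genes Rbpj and Maml1, and the target genes Hes1 and Hey1 were followed in sorted mouse skin keratinocytes. These 10 genes were taken by symbol from the gene column of the deposited tables, among loci of status OK. Of the 10, 8 were matched in both tables, each to 1 locus that names no other gene, out of 11290 basal and 11464 suprabasal loci. Rbpj and Hey1 were matched to no row and are not analysed here.

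The RNA came from skin keratinocytes of FVB/N mice at postnatal day 4 that had been sorted into basal and suprabasal cells. Each layer had 3 wild type samples and 2 bitransgenic HGPS (BT) samples, 10 in all. The bitransgenic mice model Hutchinson-Gilford progeria syndrome, in which a truncated lamin A called progerin accumulates. The transgenes, the cells that express them and the sorting markers are not given in the sources used here, nor is whether a sample holds 1 animal or several. Sample titles share 6 stems, and 3 of the wild type and 1 of the bitransgenic stems are found in both layers. The authors' deposited tables give 1 level per group, read here as FPKM (fragments scaled by transcript length and by library size). No value carries a spread between samples, and sequencing depth is unknown.

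Notch receptors are cut after a ligand on a neighbouring cell binds them, and the freed intracellular part joins Rbpj and a Mastermind protein in the nucleus to switch on genes such as Hes1. In the epidermis this signal is known to promote the exit from the basal layer and the start of spinous differentiation. Lamin A lines the inside of the nuclear envelope.

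The gene with the lowest bitransgenic to wild type ratio in any layer was Notch3, so the 250 bases before its RefSeq start site (GRCm38.p6, chr17:32166891-32167140, minus strand) are shown. Capitals mark GGGCGG, the GC box known from many promoters, on either strand.

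Notch3: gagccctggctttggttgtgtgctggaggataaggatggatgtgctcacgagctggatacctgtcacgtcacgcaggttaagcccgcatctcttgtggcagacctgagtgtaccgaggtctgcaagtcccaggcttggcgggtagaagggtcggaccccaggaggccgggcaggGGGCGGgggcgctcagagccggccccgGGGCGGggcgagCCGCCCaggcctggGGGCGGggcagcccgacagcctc

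This stretch holds 4 matches to GGGCGG, which begin 76, 49, 37 and 23 bases before the start site. That motif was chosen after the sequence had been seen, and 32.7% of all 32851 RefSeq promoters of this length hold it. So do 5 of the 8 promoters found for the genes followed here, and those of Notch1, Notch2 and Jag2 hold 5 matches each. The core of the Rbpj site, TGGGAA, and its longer form GTGGGAA, which contains it, were searched on both strands. They match 21.6% and 5.42% of all promoters, and none of the 8 promoters of the 7 genes found in the RefSeq table (Hes1 had no entry). CACGTG, an E box, matched none of the 8 and 6.02% of all. CACGCG, a site known for Hes and Hey proteins, matched 3 of the 8 (those of Notch2 and Jag1 and 1 of the pair for Dll1) and 7.62% of all. By the GENCODE M21 annotation, the stretches of Notch1 and Jag2 and the other of the pair for Dll1 lie inside their own genes. Those of Jag1 and Notch2 overlap their own genes in part.

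The sorted layers were checked against their defining markers. In wild type cells, 10 of 10 basal keratinocyte loci stood higher in the basal sort and 10 of 10 suprabasal loci in the suprabasal sort, with levels set across tables that were normalized separately. In bitransgenic cells these counts were 10 of 10 and 8 of 10, and the exceptions were Krt1 and Dsg1a. Of all loci, 52.8% in wild type and 51.6% in bitransgenic cells stood lower in the suprabasal sort. Each sort also held much RNA of the markers of the other layer. In wild type cells the suprabasal markers summed to 8640 FPKM in the basal and 18830 FPKM in the suprabasal sort. The basal markers summed to 18880 FPKM and 8723 FPKM in the same order. Of 8 melanocyte markers 3 were matched in basal cells, with summed levels of 8.38 FPKM in wild type and 12.9 FPKM in bitransgenic cells. In suprabasal cells 8 of 8 were matched and stood at 2073 and 3843 FPKM in sum. Of 7 endothelial markers 1 was matched in basal cells (3.27 and 3.68 FPKM) and none in suprabasal cells. Of 8 leukocyte markers 1 was matched in each layer, at levels from 5.02 to 7.14 FPKM. Of 8 fibroblast markers 2 were matched in basal cells, with sums of 15.1 and 5.53 FPKM, and 5 in suprabasal cells, with sums of 20.3 and 31.8 FPKM. A merged locus with Xist stood at 0.258 FPKM in wild type and 108 FPKM in bitransgenic basal cells and at 0.236 and 103 FPKM in suprabasal cells. The mix of male and female animals therefore differed between the genotypes and cannot be told apart from genotype. None of the 8 genes lies on a sex chromosome: they are on chromosomes 2, 3, 11, 12, 16 and 17.

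Notch1 was the most abundant receptor in every group and Hes1 the most abundant of the 8 genes, on the FPKM scale, which is per length. Notch1 made up 76.1% of the summed level of Notch1, Notch2 and Notch3 in wild type basal cells and 58.7% in wild type suprabasal cells. Hes1 stood above 96.4% of all wild type basal loci and 96.8% of all wild type suprabasal loci, and Maml1, the least abundant in basal cells, above 32.9% of basal loci. In wild type basal cells the order from high to low was Hes1, Notch1, Jag2, Jag1, Dll1, Notch2, Notch3 and Maml1. In wild type suprabasal cells it was Hes1, Notch1, Jag2, Jag1, Notch3, Notch2, Maml1 and Dll1. In bitransgenic basal cells Notch3 (13.02 FPKM) and Notch2 (12.9 FPKM) had changed places, and in bitransgenic suprabasal cells Jag2 came after Jag1 and Notch2. Neighbours such as Notch2 (23.8 FPKM) and Notch3 (23.9 FPKM) in suprabasal cells cannot be ordered, since no spread is known.

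**Figure D1:**
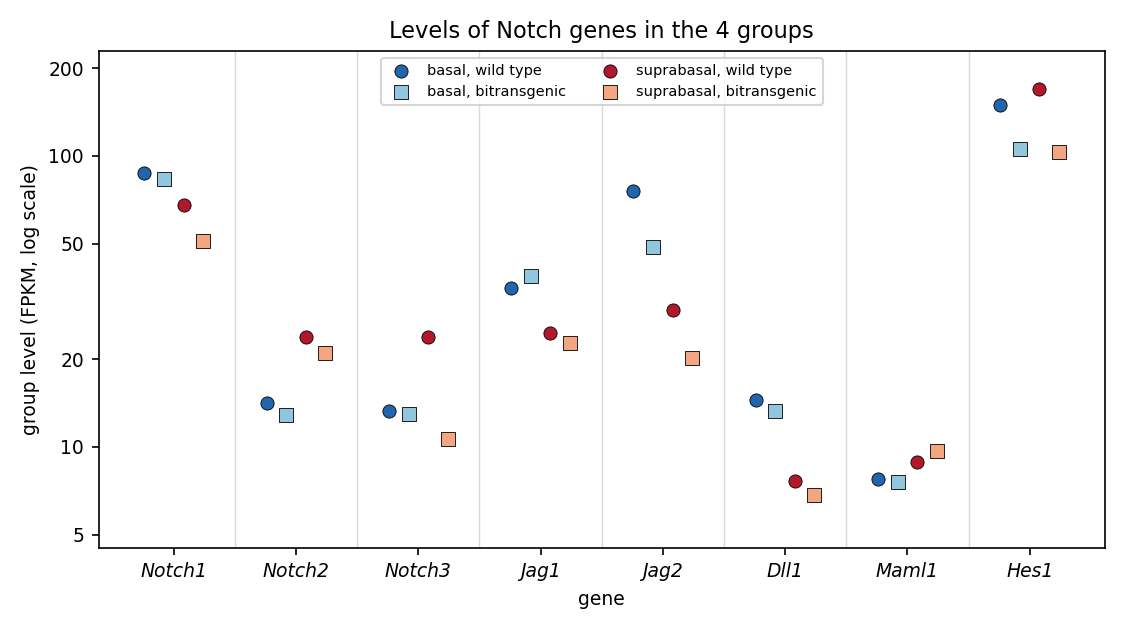
Level of each gene (FPKM, log axis) in the 4 groups, 1 point per group as the authors gave it, with no error bars because no values per sample were used. Hes1 lies between 103 and 170.4 FPKM in the 4 groups, and for Notch3 the wild type suprabasal point (23.9 FPKM) stands above the others (10.6 to 13.3 FPKM).

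The first question was how the bitransgenic genotype, and with it progerin, alters these transcripts in each layer. No gene of the 8 passed the authors' test in either layer. The lowest level relative to wild type was that of Notch3 in suprabasal cells, at 44.5% of wild type. Hes1 stood at 70.1% of wild type in basal and 60.6% in suprabasal cells, and Jag2 at 64.4% and 68.5%. The remaining genes stood between 75.0% (Notch1, suprabasal) and 110.1% (Jag1, basal) of wild type.

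A gene was called when the authors' q was under 0.05. None of the 8 was called in basal cells, where 1.65% of all loci were, and none in suprabasal cells, where 0.471% were. At an unadjusted p under 0.05 in the authors' deposited tables there was 1 of 8 in basal cells (Jag2; 7.68% of all loci) and 2 of 8 in suprabasal cells (Notch3 and Hes1; 7.11% of all loci). The q of the 8 genes ranged from 0.194 to 0.969 in basal and from 0.110 to 0.986 in suprabasal cells. When the authors' p was adjusted anew over all loci (Benjamini-Hochberg), the smallest adjusted p was 0.475 in basal and 0.137 in suprabasal cells.

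Among the receptors, Notch1, the main receptor of the epidermis, stood at 87.1 FPKM in wild type and 83.4 FPKM in bitransgenic basal cells. In suprabasal cells its levels were 67.9 and 50.9 FPKM. The basal levels lay close together and the suprabasal ones further apart, but neither pair passed the authors' test. The log2 fold change of bitransgenic over wild type was -0.06 ± 0.35 in basal cells (SE implied by the authors' p; 95% interval -0.75 to 0.63). In suprabasal cells it was -0.42 ± 0.43 (95% interval -1.26 to 0.43).

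Notch2 stood at 14.1 and 12.9 FPKM in wild type and bitransgenic basal cells and at 23.8 and 21.0 FPKM in suprabasal cells. Its log2 fold changes were -0.13 ± 0.26 and -0.18 ± 0.35 in the 2 layers. The 95% intervals ran from -0.64 to 0.38 and from -0.86 to 0.51 and so leave room for a change in either direction.

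Notch3 had 13.3 FPKM in wild type and 13.02 FPKM in bitransgenic basal cells, against 23.9 and 10.6 FPKM in suprabasal cells. Wild type suprabasal cells held the single high value, and the other 3 groups lay near each other. The basal log2 fold change was -0.03 ± 0.29 (95% interval -0.59 to 0.53). The suprabasal one was -1.17 ± 0.36 (95% interval -1.87 to -0.47), with an unadjusted p of 0.0011 and a q of 0.110 in the authors' deposited table. By that p it ranked number 90 of 11464 suprabasal loci, and it was not called. Notch3 is also known from the mural cells of blood vessels. Of 6 mural markers, Cspg4 alone was matched, at 8.26 and 10.8 FPKM in wild type and bitransgenic suprabasal cells, and melanocytes are known to express it too. The other mural markers were matched to no row, and the part of such cells in the level of Notch3 was not tested. Nor was that of melanocytes, whose markers summed to 2073 FPKM in wild type and 3843 FPKM in bitransgenic suprabasal cells. In basal cells Cspg4 fell from 3.17 to 1.32 FPKM (q = 0.0371 in the authors' deposited table), a call that is lost when the authors' p is readjusted over all loci (adjusted p = 0.133). Fewer cells of a type and less RNA per cell cannot be told apart in these bulk samples. The deposited Notch3 locus also spans the annotated gene Gm17276 on the opposite strand, and whether the authors counted by strand is not given in the sources used here.

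Among the ligands, Jag2 was the most abundant in wild type cells of both layers. It stood at 75.6 FPKM in wild type and 48.7 FPKM in bitransgenic basal cells, and at 29.6 and 20.3 FPKM in suprabasal cells. The bitransgenic level was the lower one in both layers. The log2 fold changes were -0.64 ± 0.27 in basal cells (unadjusted p = 0.0194, q = 0.194 in the authors' deposited table) and -0.54 ± 0.40 in suprabasal cells (q = 0.791). The share of Jag2 in the summed level of the ligands Jag1, Jag2 and Dll1 was 60.3% in wild type and 48.3% in bitransgenic basal cells. Basal keratinocyte markers were lower in bitransgenic basal cells at 9 of 10 loci, where 60.3% of all loci were lower. Their summed levels were 18880.0 and 12057 FPKM. Of these sums 11677 and 6923 FPKM came from a merged locus that names Krt5 together with other keratin genes. Of the basal markers Krt15 was called in basal cells by the authors' q, where 1.65% of all loci were. That call is lost with the authors' p readjusted over all loci (Benjamini-Hochberg adjusted p = 0.0941). In suprabasal cells Krt15 fell from 1025 to 124 FPKM (q = 0.0161 in the authors' deposited table), and this call is kept after readjustment (adjusted p = 0.0164). Suprabasal markers were higher in bitransgenic basal cells at 6 of 10 loci, and of them Dsc1 rose and Lor fell by the authors' q. The summed levels of the suprabasal markers in basal cells were 8640 and 10745 FPKM, of which Krtdap alone held 4173 and 6915 FPKM. The part of these markers in the level of Jag2 was not tested.

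Jag1, a ligand of the same Serrate type as Jag2, stood at 35.3 and 38.8 FPKM in wild type and bitransgenic basal cells and at 24.7 and 22.9 FPKM in suprabasal cells. The log2 fold changes of Jag1 were 0.14 ± 0.30 and -0.11 ± 0.38. Dll1, a ligand of the Delta type, stood at 14.5 and 13.3 FPKM in basal and 7.64 and 6.83 FPKM in suprabasal cells. Its log2 fold changes of -0.12 ± 0.47 and -0.16 ± 0.65 had the widest intervals of the 8 genes, from -1.03 to 0.80 and from -1.45 to 1.12.

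Of the nuclear effectors, Maml1, the Mastermind coactivator, stood at 7.77 and 7.60 FPKM in wild type and bitransgenic basal cells and at 8.89 and 9.66 FPKM in suprabasal cells. Its log2 fold changes were -0.03 ± 0.31 and 0.12 ± 0.37.

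Hes1, which encodes a transcriptional repressor and is the target gene of the set, stood at 150.3 FPKM in wild type and 105 FPKM in bitransgenic basal cells. In suprabasal cells its levels were 170.4 and 103 FPKM. Both bitransgenic groups lay near each other and below both wild type groups. The log2 fold changes were -0.51 ± 0.29 in basal cells (95% interval -1.09 to 0.06, q = 0.466 in the authors' deposited table) and -0.72 ± 0.34 in suprabasal cells (95% interval -1.40 to -0.05, unadjusted p = 0.0356, q = 0.430). Stress-responsive transcripts (a list of immediate early and heat shock genes) were lower in the same groups. Of their 18 matched loci, 6 fell in basal and 5 in suprabasal cells by the authors' q, and none rose (1.65% and 0.471% of all loci were called). After readjustment of the authors' p 4 basal and 5 suprabasal loci were past the threshold. The share of all loci past that readjusted threshold was not counted, so these 2 counts have no background beside them. Their summed level was 6385 FPKM in wild type and 2981 FPKM in bitransgenic basal cells, and 5094 and 2006 FPKM in suprabasal cells. Their part in the level of Hes1 was not tested. Nor was that of the melanocyte markers, which were higher in bitransgenic suprabasal cells at 8 of 8 loci, none of them called. Of all suprabasal loci, 56.6% were lower in bitransgenic cells.

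**Figure D2:**
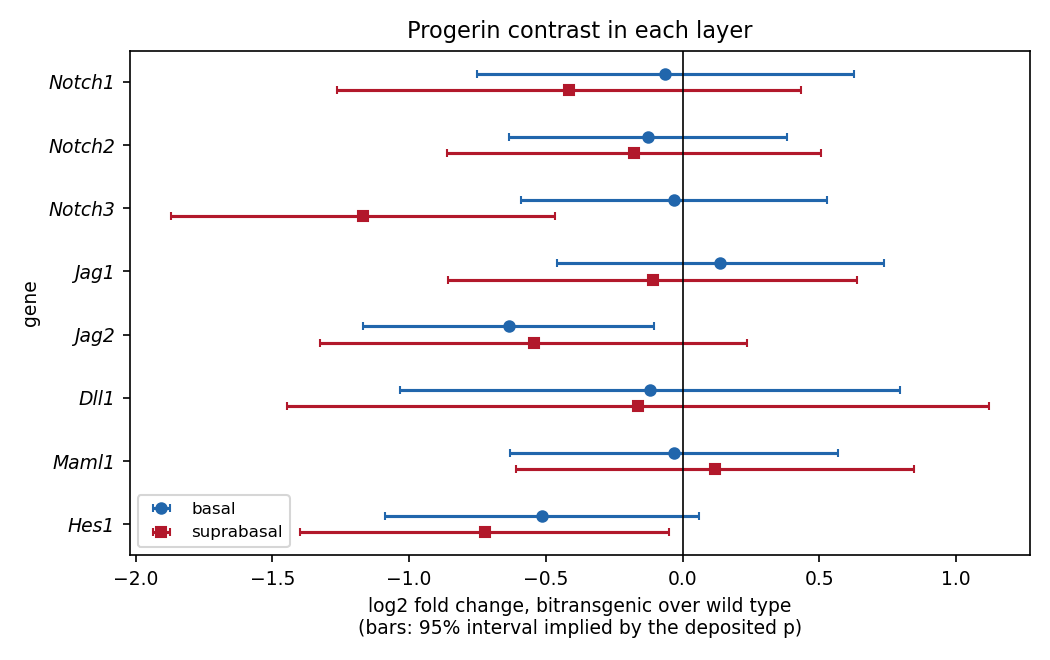
Log2 fold change of bitransgenic over wild type for each gene in basal (circles) and suprabasal cells (squares), with bars for the 95% interval implied by the deposited p, not adjusted for the number of loci. The bars of Notch3 (-1.17) and Hes1 (-0.72) in suprabasal cells and of Jag2 (-0.64) in basal cells end below 0, and no gene passed the authors' q.

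Counted by sign alone, 7 of 8 genes had the lower level in bitransgenic basal cells, where 60.3% of all loci did, and 7 of 8 in suprabasal cells, where 56.6% did. The median log2 fold change of the 8 was -0.09 in basal cells against -0.12 over all loci, and -0.30 in suprabasal cells against -0.08. The basal sign count depends on the scaling. When each layer was centred on the median of loci with at least 1 FPKM in both genotypes (-0.11 in basal and -0.08 in suprabasal cells), 4 of 8 lay below 0 in basal cells (50.9% of all loci). In suprabasal cells 7 of 8 did (50.2% of all loci). Notch1, Notch3 and Maml1 were the genes whose basal sign turned.

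The second question was whether the response differed between the layers, measured by subtracting the basal log2 fold change from the suprabasal one. By a two-sided Wald test with Benjamini-Hochberg adjustment over 10583 loci, none of the 8 genes was called, and 0.0378% of all loci were. The adjusted p was 1 for each of the 8. At an unadjusted p under 0.05 there was 1 of 8, Notch3, against 3.08% of all loci. Notch3 differed by -1.14 ± 0.46, with a 95% interval from -2.04 to -0.24 that takes no account of the number of loci. Hes1 differed by -0.21 ± 0.45, Notch1 by -0.35 ± 0.56 and Jag2 by 0.09 ± 0.48. Because title stems are shared, the layers may not be independent, which the test assumes.

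The distribution over the layers was compared as levels, with no test. In wild type cells the ligands lay on the basal side. As a ratio of suprabasal to basal level, Jag2 had 0.392, Dll1 0.529, Jag1 0.699 and Notch1 0.779. Notch2 (1.69), Notch3 (1.80), Maml1 (1.15) and Hes1 (1.13) had the higher level in suprabasal cells. Thus 4 of 8 were lower in suprabasal cells, where 52.8% of all loci were.

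In bitransgenic cells 6 of 8 genes were lower in suprabasal cells, where 51.6% of all loci were. The ligand ratios were 0.417 for Jag2, 0.513 for Dll1 and 0.589 for Jag1. Notch2 had a ratio of 1.63 and Maml1 of 1.27, on the same side as in wild type. Notch3 passed from 1.80 to 0.816. Hes1 passed from 1.13 to 0.980, and once the ratios were centred on the median of loci with at least 1 FPKM the bitransgenic log2 ratio of Hes1 was 6.64e-05, so that its side depends on the scaling.

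**Figure D3:**
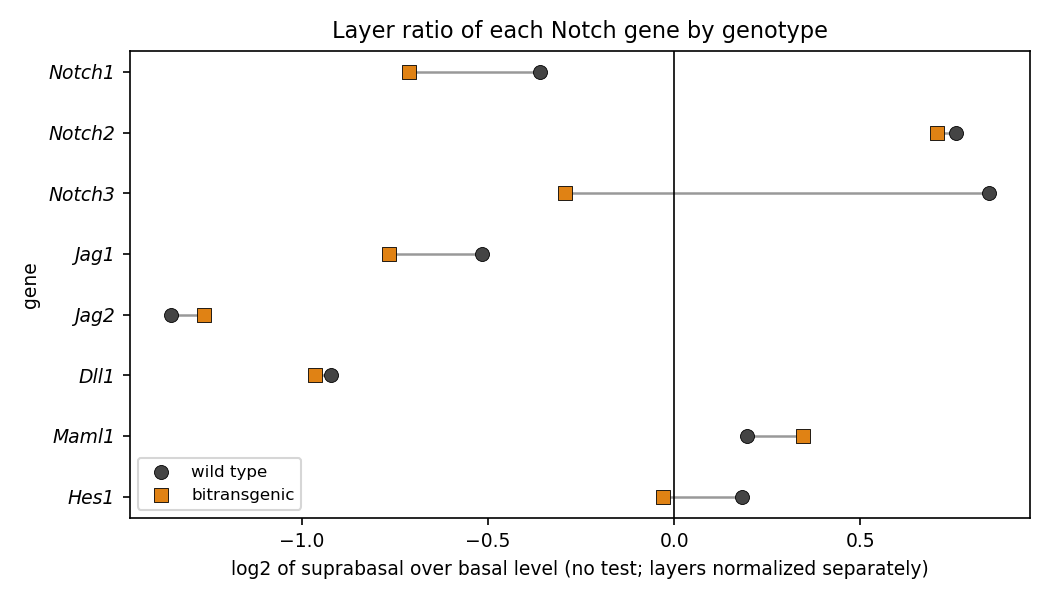
Log2 of the suprabasal over the basal level for each gene in wild type (circles) and bitransgenic cells (squares), joined by a line, with 1 value per genotype and no error bars. The longest line is that of Notch3, from 0.84 (wild type) to -0.29 (bitransgenic), and the ligands Jag1, Jag2 and Dll1 lie below 0 in both.

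Other genes of the pathway were read from a list of 69, of which 46 were matched in basal and 51 in suprabasal cells. None was called in either layer or for the difference between the layers. At an unadjusted p under 0.05, 6 were lower and none higher in basal cells, and 2 were lower and none higher in suprabasal cells, where 7.68% and 7.11% of all loci passed in either direction. The median log2 fold change was -0.30 in basal cells, against -0.12 over all loci, and -0.12 in suprabasal cells, against -0.08. By sign, 36 of 46 lay below 0 in basal and 34 of 51 in suprabasal cells, against 60.3% and 56.6% of all loci. After centring 28 of 46 and 28 of 51 did, against 50.9% and 50.2%.

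Among the proteases that process Notch receptors, Adam10, which makes the cut outside the membrane, was the most abundant, at 46.3 and 47.5 FPKM in wild type and bitransgenic basal cells and at 54.1 and 43.4 FPKM in suprabasal cells. Psen2, a catalytic subunit of gamma-secretase, stood at 21.4 FPKM in wild type and 1.19 FPKM in bitransgenic basal cells, and at 18.2 and 17.2 FPKM in suprabasal cells. A single group of the 4 was thus low. The basal log2 fold change of Psen2 was -4.17 ± 1.58 (unadjusted p = 0.0083, q = 0.0948 in the authors' deposited table), and its layer difference was 4.08 ± 1.66 (adjusted p = 1).

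Of the enzymes that add sugars to Notch receptors, Rfng had the highest basal levels, at 15.3 and 12.5 FPKM in wild type and bitransgenic basal cells and at 13.5 and 13.5 FPKM in suprabasal cells. Poglut1 stood at 13.6 and 8.71 FPKM in suprabasal cells (-0.64 ± 0.50), level with Rfng in wild type. Of the genes for ubiquitin ligases and endocytosis, Mib1, which acts on the ligands, had 33.8 and 24.3 FPKM in basal cells, and Mib2 9.68 and 2.84 FPKM (-1.77 ± 0.70, q = 0.125 in the authors' deposited table). In suprabasal cells Mib2 stood at 4.61 and 4.02 FPKM. Dlk2, a gene of a non-canonical ligand, stood at 12.5 and 5.66 FPKM in basal cells (-1.14 ± 0.57), and Notch4 was matched in suprabasal cells alone, at 2.56 and 0.238 FPKM (-3.43 ± 2.46).

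By sign, 4 of 7 coactivator genes were lower in bitransgenic basal cells and 6 of 7 higher in suprabasal cells, and 12 of 13 and 10 of 15 corepressor genes were lower, none of them called (60.3% and 56.6% of all loci were lower). After centring, 2 of 7 coactivator genes were lower in basal and 1 of 7 in suprabasal cells, and 10 of 13 and 8 of 15 corepressor genes. Crebbp, a histone acetyltransferase of the coactivator complex, had 32.4 and 34.8 FPKM in basal cells, and Kat2b, another acetyltransferase, 6.24 and 2.41 FPKM (-1.37 ± 0.60, q = 0.225 in the authors' deposited table). In suprabasal cells Kat2b stood at 4.46 and 6.78 FPKM, and its layer difference was 1.97 ± 0.80, which was not called. Of the corepressors, Ncor1 stood at 143.9 and 116 FPKM and Tle2 at 7.76 and 2.58 FPKM in basal cells. Nrarp, a feedback target of Notch, had 22.5 and 22.2 FPKM in basal and 44.3 and 26.5 FPKM in suprabasal cells (-0.74 ± 0.36, q = 0.470 in the authors' deposited table). In suprabasal cells 2 loci name Nrarp and the one of higher mean level is given, against 1 locus in basal cells. The other suprabasal gene with an unadjusted p under 0.05 was Dtx2, a Deltex ubiquitin ligase, at 28.5 and 17.0 FPKM.

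**Figure D4:**
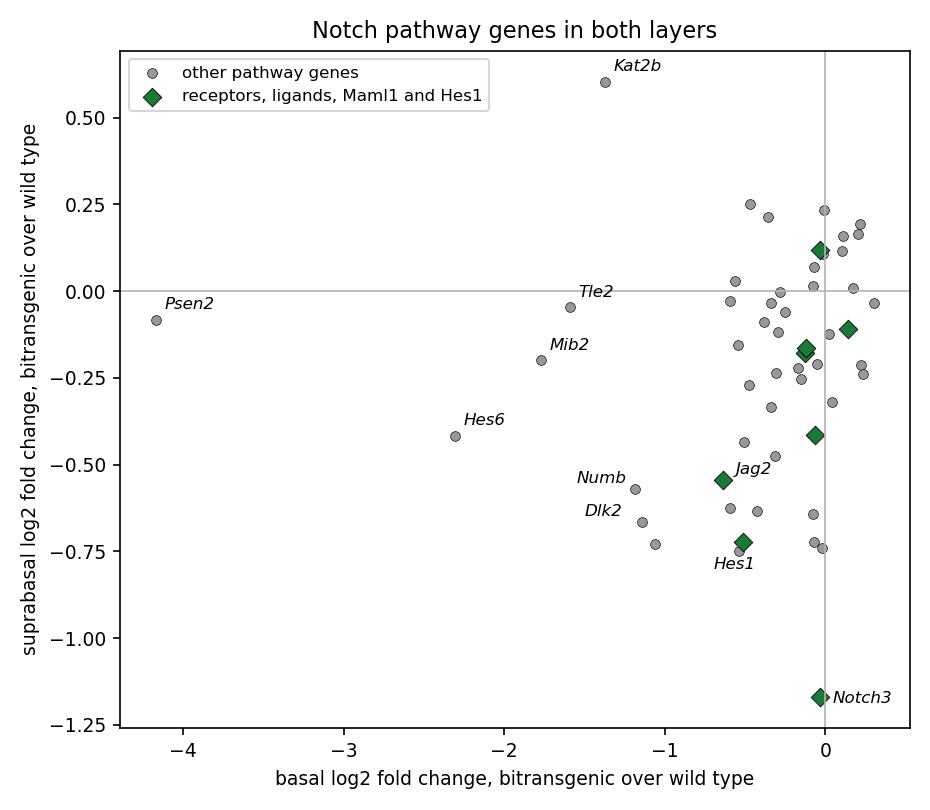
Log2 fold change of bitransgenic over wild type in basal (horizontal) and suprabasal cells (vertical), on axes of different scale, for the 46 other pathway genes matched in both layers (grey circles) and the 8 receptor, ligand, effector and target genes (green diamonds). Psen2 lies farthest to the left at -4.17, and Notch3 lowest at -1.17 with a basal value near 0.

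Epidermal genes linked to Notch, were a list of 14, matched in full in both layers. By the authors' q 1 fell and none rose in basal cells, where 1.65% of all loci were called. In suprabasal cells also 1 fell and none rose, where 0.471% of all loci were called. Lor, a cornified envelope protein, stood at 17.2 and 3.18 FPKM in basal cells (-2.44 ± 0.67, q = 0.0347 in the authors' deposited table). With the authors' p readjusted over all loci, Lor missed the threshold (adjusted p = 0.0513). In suprabasal cells it had 27.6 and 29.6 FPKM. Ivl, another cornified envelope gene, had the opposite sign in basal cells, at 4.14 and 9.29 FPKM (log2 fold change 1.17, q = 0.118 in the authors' deposited table), and was not called. Wnt4, a Wnt ligand known to be held down by Notch1 in keratinocytes, fell from 35.2 to 11.4 FPKM in suprabasal cells (-1.62 ± 0.40, q = 0.0161). Its p is the smallest the table holds, so that this SE is an upper limit. Wnt4 stood at 74.1 and 41.1 FPKM in basal cells (q = 0.0563). The remaining genes missed the threshold in both layers. Trp63, the master transcription factor of the epidermis, had 210.2 and 197 FPKM in basal cells, and Cdkn1a, a cell cycle inhibitor, 119 and 138 FPKM. The keratin gene Krt10, the most abundant of the list in wild type cells, had 2319 and 1601 FPKM in basal and 6574 and 2354 FPKM in suprabasal cells. The median log2 fold change of the 14 was -0.14 in basal cells, against -0.12 over all loci, and -0.35 in suprabasal cells, against -0.08.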

How the data were processed

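The authors deposited 1 table per layer with a header of the form Cuffdiff writes. TopHat, Cufflinks and the build mm10 are named, without versions, in the submitters' processing notes. Levels are the authors' FPKM, a unit read from that form, since no header names it. The log2 fold changes, the test statistic (a score, not used), and the p-value and q-value are also as deposited by the authors. The tables held 11316 basal and 11490 suprabasal loci, and 26 of each without status OK were left out. The deposited log2 fold changes equal the ratio of the levels to within 4.13e-05. The tables were normalized separately, so levels were not tested across them, and the layer test uses fold changes taken within each table.

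The SE of a fold change is its size divided by the normal quantile of the authors' p. It gave the 95% intervals and the two-sided Wald test between layers, with Benjamini-Hochberg adjustment over the 10583 loci that had status OK in each table, and was tested on simulated data. Where several loci name a gene, that of the highest mean level was used. Starts are given from 1 (4600 of 10527 loci then start where GENCODE M21 puts the gene, against 124 as written). Computation used Python 3.11.15, numpy 2.4.6, pandas 2.3.3 and scipy 1.17.1.

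The genes and lists were chosen with earlier results of these data known. Named among the other pathway genes are, for each role, that of highest level and that of largest change with at least 5 FPKM, every called gene, and some chosen after their values were seen (Dtx2, Trp63, Cdkn1a, Ivl).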

Additional observations from a re-analysis of the deposited data

How the results depend on the processing

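The counts of called genes among the 8 stayed at 0 in basal cells, in suprabasal cells and for the layer difference under each alternative run. For the layers these were readjustment of the authors' p over the analysed loci, a q threshold of 0.10 and centring, and for the layer difference centring. Leaving out loci that name several genes, or loci under 1 or 5 FPKM, removes none of the 8 genes and so tests little. Centring on the median of loci with at least 1 FPKM turned the basal median log2 fold change of the 8 genes to 0.021. It turned those of Notch1 to 0.048, Notch3 to 0.079 and Maml1 to 0.079, and the bitransgenic log2 suprabasal over basal level of Hes1 to 6.64e-05. With the same centring the unadjusted p of Jag2 in basal cells became 0.0538 and that of Hes1 in suprabasal cells 0.0614, both past 0.05, and that of Notch3 in suprabasal cells 0.00235. Pseudocounts of 1 and 5 FPKM changed no sign of a single gene or median and moved no value beyond its error. No paired analysis was possible because the tables give 1 pooled value for each group, and for the same reason no sample could be left out. The SE of the 8 genes ranged from 0.26 to 0.47 in basal and from 0.34 to 0.65 in suprabasal cells, and the depth behind them is unknown.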

Other observations

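The genes with levels most like those of 3 of the Notch genes were sought among 7123 single-gene loci with at least 5 FPKM in every group. Likeness is the Euclidean distance between the 4 log2 group levels, each gene centred on its own mean, and with 4 values it describes these tables only. Nearest to Jag2 was Col17a1, a hemidesmosome collagen that is also one of the basal keratinocyte markers used, at a distance of 0.0568. Its levels were 373 and 237 FPKM in wild type and bitransgenic basal cells and 145 and 95.2 FPKM in suprabasal cells. Lsm6 (0.0817) and Cbr2 (0.0994) followed. Nearest to Notch3 were Gm17257 (0.0532), Klhdc2 (0.111) and Zkscan3 (0.119). Gm17257 had 8.43 and 8.32 FPKM in basal cells and 14.9 and 6.97 FPKM in suprabasal cells. Nearest to Notch1 were Ube2q1 (0.0384), Scaf4 (0.0477) and Mex3c (0.0529).

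Deposited loci can be wider than the gene they name. Of the 8 loci, 4 overlap a GENCODE M21 gene on the opposite strand, namely those of Notch1, Notch3, Dll1 and Maml1, and 6 of 8 overlap another annotated gene on either strand. The Maml1 locus also spans the protein-coding gene Ltc4s on the same strand, whose reads counting by strand would not set apart. The Notch1 locus lies on chromosome 2 from 26445478 to 26516663, where Notch1 is annotated from 26457903 and 0610009E02Rik from 26445696 to 26459390. The Notch3 locus lies on chromosome 17 from 32113429 to 32166880, where Notch3 is annotated from 32120820 to 32166852 and Gm17276 from 32113411 to 32141843. The Hes1 locus (chromosome 16 from 30064384 to 30067796) and the Jag1 locus (chromosome 2 from 137081456 to 137116644) have the bounds of their annotated genes. The other 4 loci are those of Notch2 (chromosome 3 from 98013538 to 98150367), Jag2 (chromosome 12 from 112907802 to 112929512), Dll1 (chromosome 17 from 15367353 to 15379475) and Maml1 (chromosome 11 from 50236469 to 50292311). All positions count from 1 on mm10, the build the submitters' processing notes name (GRCm38).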
